A study of Mus musculus with 12 samples.

Results

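The genes examined encode surface antigens that carry a cluster of differentiation (CD) number in their symbol. They were all rows of the value table whose symbol starts with Cd and a digit, apart from Cd34, Cd36, Cd68 and Cd163, which gave 25 of 754 genes. The transcripts were counted in total RNA of cells sorted as HSCs (hematopoietic stem cells, per the label of the sort) by flow cytometry from femur marrow, taken from male mice 3 days after surgery. The animals were of the C57/BL6 strain, either Wild type or Adrb3-/-, which lack the beta-3 adrenergic receptor, and had sham surgery or ICH, as the labels write it. Each of the 4 combinations of genotype and surgery had 3 libraries, and each library was taken as 1 mouse, as the stated 6 mice per genotype match 12 libraries. The sources used here name neither the gate markers of the sort nor the origin of the Adrb3-/- line, and Adrb3 itself was not analysed here.

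CD numbers name surface molecules by the antibodies that bind them, so the numbered genes share a naming scheme and not a pathway. Immunologists use them to tell lineages apart: chains of the antigen receptor mark T cells, pattern receptors mark monocytes and macrophages, and costimulatory ligands such as Cd80 and Cd86 mark cells that present antigen. Some of these molecules also act as pairs of ligand and receptor. Cd70 binds Cd27, Cd40lg binds Cd40, and Cd80 and Cd86 bind Cd28. In mouse marrow, CD27 is also carried by early progenitors, where it is used in sorting.

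In the lineage classes assigned here, 5 of the 25 genes were placed with T and NK cells. They were Cd244, which is Cd244a in current naming, Cd247, Cd27, Cd28 and Cd40lg. Another 4 were placed with myeloid cells (Cd14, Cd84, Cd180 and Cd209e). Antigen presentation and costimulation took 10 (Cd1d1, Cd1d2, Cd40, Cd70, Cd74, Cd80, Cd83, Cd86, Cd274 and Cd276), and 6 are found on several lineages (Cd38, Cd44, Cd47, Cd69, Cd99 and Cd151). None was in the class fixed for B cells, whose listed symbols were not analysed here. B cell markers with other symbols were measured and are given below. The classes are not exclusive, as Cd180 is also carried by B cells, Cd84 by platelets and Cd27 by early progenitors. None of the 8 listed T and NK cell markers with other symbols was among the genes analysed here. Whether the sorted cells held T or NK cells was therefore not tested.

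Wild type sham replicate 1 was left out of the main results below, because its reaction failed, and enters only where this is stated. Its strongest positive control gave 79 counts, against 6278 to 44207 in the other 11 libraries, and 1 count there was scaled to a value of 15.5. In those 11 the genes summed to between 110740 and 556407 counts. S100a8 and S100a9, the calprotectin subunits of neutrophils, made up 43.9% to 55.3% of all counts in 10 of the 11, and 23.2% in Adrb3-/- sham replicate 3. The positive control at 6278 counts was that of Adrb3-/- ICH replicate 1, where the highest negative control was at 61 counts. In Adrb3-/- ICH replicate 2 a count was worth 5.16, the most of the 11. Of the stem and progenitor markers measured, Flt3 and Cd34 stood above the negative controls in all 11 libraries and Kit and Gata2 in 10. All 8 neutrophil markers measured did so in all 11, and 9 of 10 markers of marrow macrophages. Ms4a1 and Btk, the listed B cell markers that were measured, also stood above the negative controls in all 11. Their scaled values ran from 356 to 900 for Ms4a1 and from 378 to 608 for Btk. The relation of the CD-numbered genes to these B cell markers was not tested.

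Genes under 20 counts carry the value 20 in the deposited table, and few CD-numbered genes did. Of the 275 values of the 25 genes in 11 libraries, 5 were at 20, or 1.82%, against 8.31% over all genes. All 5 lay in Adrb3-/- ICH replicate 2, where 32.2% of all genes were at 20 and where that value means a level below 103. They were those of Cd1d2, the close copy of the lipid-presenting gene Cd1d1, of Cd209e, a lectin gene of the DC-SIGN family, of the ligand genes Cd40lg and Cd70, and of Cd99, an adhesion molecule of migrating leukocytes. The other 20 genes were never at 20, and no gene was at 20 throughout. In the failed library 4 genes were at 20 (16%, against 21.8% of all genes), namely Cd69, Cd70, Cd80 and Cd209e.

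Being above 20 counts was not the same as being above background. The background of a library was taken as the mean plus 2 SD of its 8 negative control probes, which came to between 15.5 and 64.4 counts. A value under 20 counts was taken as not above it. By that measure 11 of the 25 genes (44%) stood above background in all 11 libraries, as did 45.0% of all genes. Adrb3-/- ICH replicate 1, whose own background was the one at 64.4 counts, set this number. Without it 20 of 25 genes (80%) were above background in all 10 libraries left, and 66.6% of all genes. The genes still missing were those at 20 in Adrb3-/- ICH replicate 2, whose background was 16.5 counts. Whether they lay above it is not known. Without that library too, 23 of 25 genes (92%) and 83.3% of all genes were above background throughout. Cd74, the invariant chain of MHC class II, had a median count 47.7 times the background. Cd47, the ligand that holds off phagocytosis, was at 31.2 times and Cd69, an early activation antigen, at 13.6 times. At the other end, Cd1d2 was at 1.35 times and Cd40lg at 1.36 times the background, and Cd70, the hyaluronan receptor gene Cd44 and Cd99 were at 1.85 to 1.87 times. Probes differ in how well they capture their target, so these multiples say how far each gene stood above background and are no order of transcript levels. The background was not subtracted from the values.

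**Figure D1:**
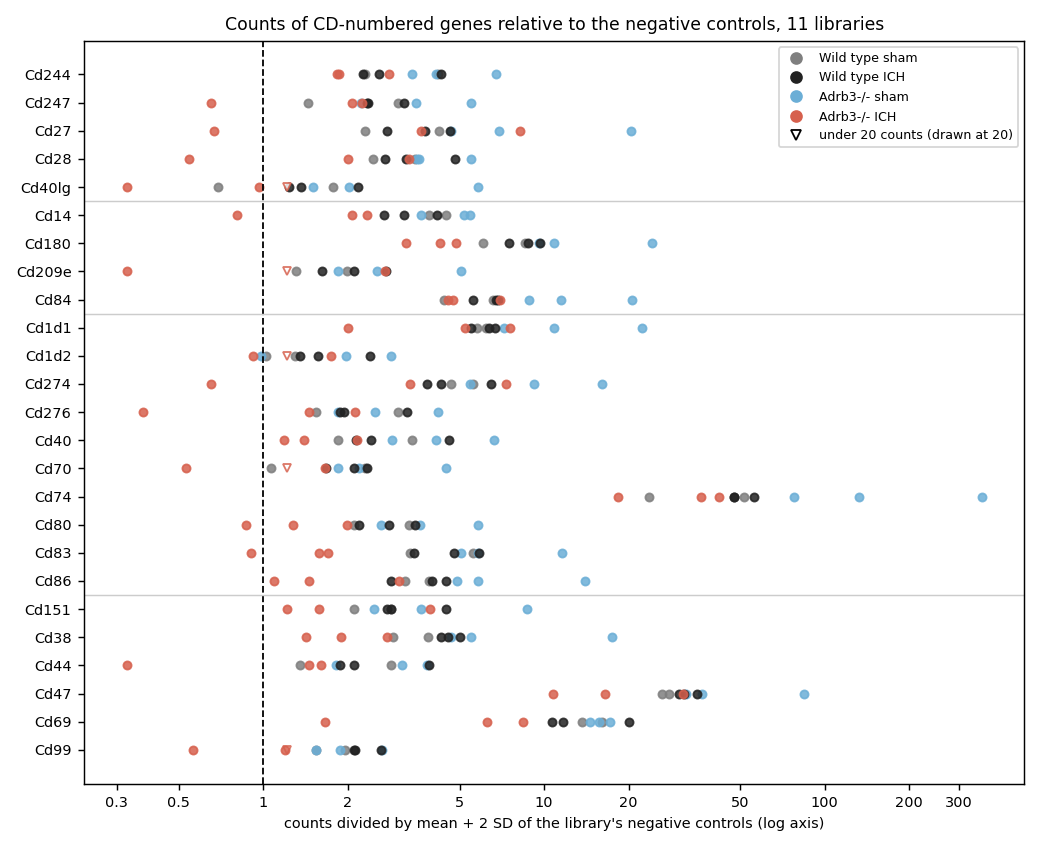
Counts of each of the 25 genes divided by the background of the library (mean plus 2 SD of its negative controls), on a log axis; each point is 1 of the 11 libraries, coloured by group, open triangles are genes under 20 counts drawn at 20, grey lines divide the 4 classes, and the dashed line is the background itself. Cd74, Cd47 and Cd69 lie well to the right of the line, while Adrb3-/- ICH replicate 1 puts 14 genes at or to the left of it. Open triangles fall to the right of the line, although they were counted as not above background.

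The genes also differed in how far their values ranged over the 11 libraries. Among the 20 that were never at 20, the highest value was a median 2.50 times the lowest, close to the 2.37 times of 491 tested genes of that kind. Cd47 stood apart as the steadiest: its values ran from 1222 to 1515, a ratio of 1.24, and only 2 of the 491 genes had a smaller one. Cd80, the costimulatory ligand of Cd28, followed with 92.2 to 144 (1.57). The widest ranges were those of Cd74, from 1034 to 6476 (6.26), Cd27, from 82.5 to 383 (4.64), Cd69, from 205 to 931 (4.53), Cd274, which encodes PD-L1, from 80.6 to 342 (4.24), and Cd83, a marker of mature dendritic cells, from 79.6 to 322 (4.05). The lowest values of Cd27 and Cd274 were both in Adrb3-/- ICH replicate 1, at 43 and 42 counts, below the background of that library. In Cd69 the spread lay within groups as much as between them. Its values were 729, 577 and 261 in Adrb3-/- sham and 205, 718 and 293 in Adrb3-/- ICH libraries.

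**Figure D2:**
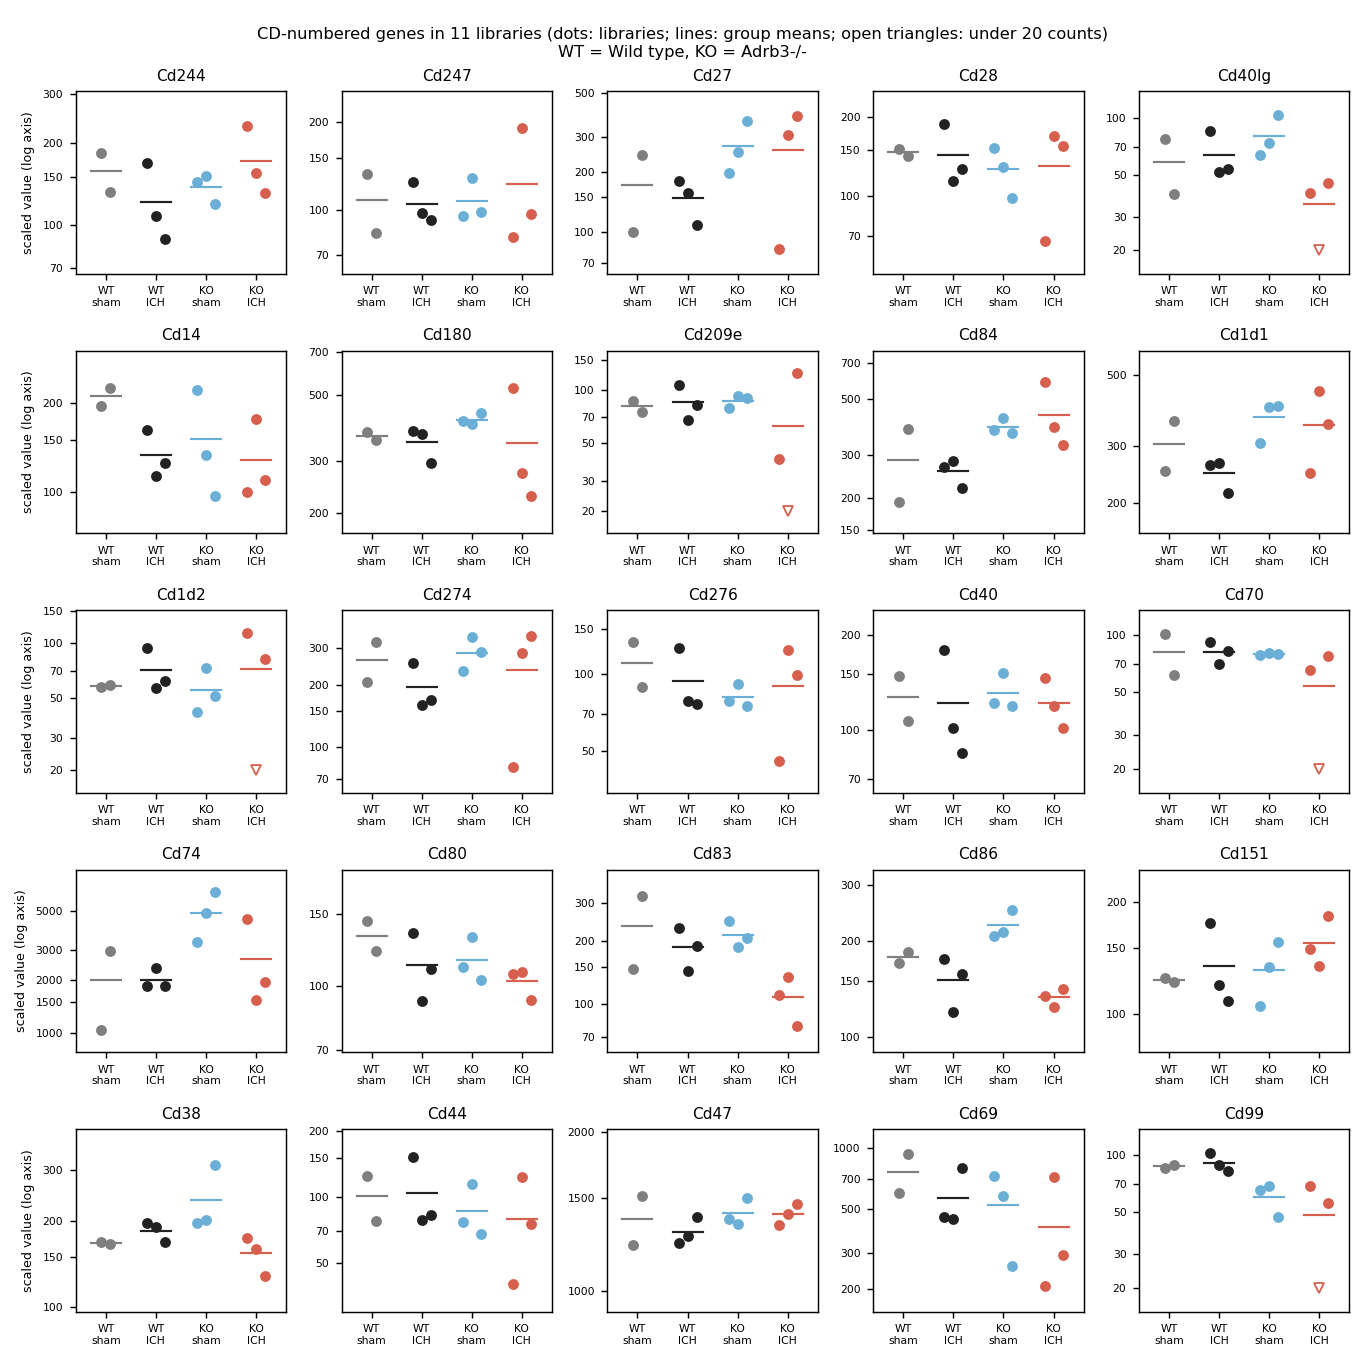
Scaled values of the 25 genes in the 11 libraries, on a log axis with its own range in each panel; dots are libraries, short lines are group means, open triangles are values under 20 counts, WT is Wild type and KO is Adrb3-/-. Cd86 in KO ICH libraries (124 to 142) lies below KO sham libraries (208 to 250), and Cd47 stays between 1222 and 1515 in all groups.

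The first question is whether the antigen genes differed between ICH and sham surgery where the receptor gene was inactive. For Adrb3-/- mice, none of the 25 genes passed the limma test over all 674 tested genes, of which 7 did (1.04%). The genes with the smallest p-values all had lower means after ICH, and 2 of them belong to antigen presentation. Cd86, the B7-2 ligand of Cd28, had values of 208, 213 and 250 in sham and 134, 124 and 142 in ICH libraries. All 3 ICH libraries were lower than all 3 sham libraries, with means of 224 ± 23.0 and 133 ± 9.08 (SD, n = 3 each). The log2 change was -0.74 (SE 0.22), with a limma adjusted p of 0.19. Cd83 had values of 247, 185.5 and 206 in sham and 111, 134 and 79.6 in ICH libraries, again without overlap. The value of 111, in replicate 1, came from 58 counts, below the background of that library. The log2 change of Cd83 was -0.99 (SE 0.34, adjusted p = 0.3). Scaled by its factor, the background of a library was 17.9 to 42.5 in Adrb3-/- sham and 46.8 to 124 in Adrb3-/- ICH libraries. With the mean of the negative controls subtracted, the changes were -1.10 for Cd86 and -1.42 for Cd83.

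Cd38, an enzyme that consumes NAD on many blood cells, had values of 198, 202 and 313 in sham and 175, 160.0 and 129 in ICH libraries. The groups did not overlap, the sham value of 313 is that of replicate 3, and the log2 change was -0.59 (SE 0.24, adjusted p = 0.428), or -0.38 without that library. Cd40lg, which activated helper T cells use to signal through Cd40, had values of 63.9, 73.7 and 104 in sham libraries. In ICH libraries it was at 40.3 and 45.2 in replicates 1 and 3 and under 20 counts in replicate 2. Its log2 change of -1.22 (SE 0.38, adjusted p = 0.248) rests on 21 counts in replicate 1 and 21 in replicate 3, neither of which was above the background of its library. Putting 103, the worth of 20 counts in that library, in place of the 20 gave a change of -0.45. Cd74 overlapped between the groups, at 3312, 4857 and 6476 in sham and 4493, 1554 and 1971 in ICH libraries, with a log2 change of -0.97 (SE 0.48, adjusted p = 0.461).

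Of the 25 genes, 19 had a negative and 6 a positive log2 change in this comparison, with a median of -0.22, while 67.1% of all tested genes were negative with a median of -0.16. Relative to that median, 15 of the 25 genes were lower. Unadjusted p was under 0.05 for 4 genes (16%), against 10.8% of all tested genes, and all 4 were lower after ICH. Groups that did not overlap, with ICH lower, were seen for 5 genes (20%), against 10.2% of all tested genes. They were Cd38, Cd40lg, Cd70, Cd83 and Cd86. In Cd70 the gap was narrow, since the sham libraries lay between 78.7 and 80.04 and the nearest ICH library was at 77.5. For Cd70 and Cd40lg the value at 20 stands for a level anywhere below 103, so that the order of that library is not known. No gene had ICH libraries all higher, against 1.63% of tested genes. By class, 8 of 10 genes of antigen presentation and costimulation were negative (median -0.34), 5 of 6 of the broadly expressed genes (-0.33), 3 of 4 myeloid genes (-0.28) and 3 of 5 T and NK cell genes (-0.04).

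Macrophage markers moved in the same libraries. The summed value of the 10 measured markers lay between 6607 and 12934 in Adrb3-/- sham and between 1069 and 2446 in Adrb3-/- ICH libraries. It was 2104 to 4746 in Wild type sham and 3240 to 4426 in Wild type ICH libraries. None of the 10 was at 20 in a library except Mertk, in 1. All 10 had negative log2 changes for ICH in Adrb3-/- mice, and 5 of them passed (Mrc1, Mertk, Vcam1, Adgre1 and Cd163, limma adjusted p between 0.0227 and 0.0483). These calls depended on single libraries: the number of all genes that passed was 7 with 11 libraries, 0 without Adrb3-/- sham replicate 2 or 3 or any 1 of the Wild type ICH libraries, 2 without Adrb3-/- sham replicate 1, 3, 23 and 50 without Adrb3-/- ICH replicates 2, 1 and 3 in turn, and 10 without either Wild type sham library. Macrophages also carry Cd86, Cd83, Cd38 and Cd74. The relation of these genes to the summed macrophage markers over the 11 libraries is given below. How much of their changes for ICH goes with these markers was not tested. In bulk RNA of sorted cells, fewer cells of a type and less RNA per cell cannot be told apart.

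Some CD-numbered antigens have genes with other symbols, and they were counted from a fixed list of 54, of which 36 were tested. For ICH against sham in Adrb3-/- mice, 2 of the 36 passed as lower, Mrc1 (CD206) and Vcam1 (CD106), and none as higher. Of all 674 tested genes, 7 passed (1.04%). Both Mrc1 and Vcam1 are among the macrophage markers given above, so they are no separate result. The median change of the 36 was -0.03. In the other 6 comparisons none of the 36 passed in either direction, nor did any other tested gene.

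The same question was put for Wild type mice, which carry the receptor. No gene of the 25 passed for ICH against sham there, nor did any of the 674 tested genes (0%). None of the 674 had an unadjusted p under 0.05 either. The fit shares 1 spread per gene over all 4 groups, and 2 sham libraries remain here. The lack of calls is therefore no evidence of equal levels. The smallest p of the 25 belonged to Cd14, the co-receptor for lipopolysaccharide on monocytes and neutrophils. Its values were 195 and 224 in the 2 sham libraries and 162, 113 and 125 in ICH libraries, without overlap, and the means were 210 ± 20.3 (SD, n = 2) and 133 ± 25.6 (SD, n = 3). Its log2 change was -0.66 (SE 0.38, adjusted p = 1). It was the one gene of the 25 (4%) with all ICH libraries lower, against 14.1% of all tested genes, and none had them all higher, against 3.12%. In Adrb3-/- mice Cd14 overlapped between sham (221, 133 and 96.9) and ICH libraries (99.8, 175.5 and 110).

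Among the next genes of this comparison, Cd244, a receptor of the SLAM family, stood at -0.41 (SE 0.34), Cd86 at -0.25 (SE 0.24) and Cd80 at -0.25 (SE 0.25). Cd244 was at 184 and 133 in sham and 168, 108 and 89.1 in ICH libraries, with overlap. Cd80 also overlapped, at 144 and 122 in sham and 135, 92.2 and 110.2 in ICH libraries. Single libraries moved these small changes: that of Cd244 was -0.17 and -0.64 without Wild type sham replicates 2 and 3, and -0.66 and -0.21 without Wild type ICH replicates 1 and 3. That of Cd80 was -0.13 without Wild type sham replicate 2, and -0.39 and -0.12 without Wild type ICH replicates 1 and 2, and that of Cd86 was -0.10 without Wild type ICH replicate 2. In Cd86 the sham libraries were at 171 and 184 and the ICH libraries at 175, 120 and 157. The 25 genes had 16 negative and 9 positive changes with a median of -0.07, against a median of -0.11 over all tested genes. The sham group has 2 libraries here, and they differed among themselves: Cd74 was at 1034 and 2968, Cd27 at 101 and 245, and Cd83 at 146 and 322.

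A second question is how the genotypes differed, first in sham libraries alone. Again none of the 25 passed, and none of the 674 tested genes (0%). Cd74 had the smallest p. Its values were 1034 and 2968 in Wild type and 3312, 4857 and 6476 in Adrb3-/- libraries, so the groups did not overlap, with means of 2001 ± 1367 (SD, n = 2) and 4882 ± 1582 (SD, n = 3). Its log2 change was 1.42 (SE 0.53, adjusted p = 0.968), and it was 0.66 without Wild type sham replicate 2 and 2.18 without replicate 3. Cd38 stood at 0.46 (SE 0.27), with Wild type libraries at 169 and 167 and the Adrb3-/- libraries at 198, 202 and 313, and at 0.25 without the Adrb3-/- library at 313, replicate 3.

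Cd84, a SLAM receptor of myeloid cells and platelets, stood at 0.52 (SE 0.34) in the sham libraries, and at 0.03 without Wild type sham replicate 2, against nearly 1 without replicate 3. Its values were 194 and 379 in Wild type and 376, 422 and 367 in Adrb3-/- libraries. Cd14 stood at -0.56 (SE 0.38), from 195 and 224 in Wild type and 221, 133 and 96.9 in Adrb3-/- libraries, and at -0.87 and -0.28 without Adrb3-/- sham replicates 1 and 3. Adrb3-/- libraries were all higher for 4 genes (16%), namely Cd38, Cd74, Cd86 and Cd180, a relative of the Toll-like receptors, against 10.4% of all tested genes. They were all lower for Cd99 alone (4%), against 16.3%. Unadjusted p was under 0.05 for 1 gene of the 25 (4%), against 4.75% of tested genes. The Adrb3-/- sham libraries serve both here and against the Adrb3-/- ICH libraries, so the opposite signs of Cd38, Cd74 and Cd86 in both are not independent of each other.

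The genotypes were then compared in the ICH libraries. None of the 25 passed, and none of the 674 tested genes (0%). Cd84 was higher in every Adrb3-/- library, at 587, 387 and 327, than in the Wild type libraries, at 268, 282 and 220. The log2 change was 0.72 (SE 0.30, adjusted p = 0.41), and the library at 587 was Adrb3-/- ICH replicate 1, without which it was 0.48. Cd83 was lower in Adrb3-/- libraries (111, 134 and 79.6) than in Wild type libraries (229, 144 and 188), with a log2 change of -0.79 (SE 0.34, adjusted p = 0.41). The value of 111, in Adrb3-/- ICH replicate 1, was below the background of that library.

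Cd99 and Cd40lg also had negative changes. Cd99 was at 102, 88.7 and 82.7 in Wild type and at 69.1 and 55.9 in Adrb3-/- replicates 1 and 3, with replicate 2 under 20 counts. Its log2 change of -1.07 (SE 0.40, adjusted p = 0.4) became -0.30 with 103 in place of the 20 and -0.54 without that library, and that of Cd40lg went from -0.88 (SE 0.38, adjusted p = 0.42) to -0.11 and -0.53. Since the level lies anywhere below 103, whether these 2 genes overlap between the groups is not known. Cd40lg was at 85.2, 51.8 and 53.5 in the Wild type libraries. The share of the 25 genes that did not overlap was 4% with Adrb3-/- higher, against 4.9% of tested genes, and 12% with Adrb3-/- lower, against 8.75%. Unadjusted p was under 0.05 for 4 genes (16%), against 10.7% of tested genes.

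Over both treatments, Adrb3-/- and Wild type mice were compared as an average, which passed for none of the 25 genes and for 0% of tested genes. The smallest p-values were those of Cd99, at -0.80 (SE 0.30), and Cd84, at 0.62 (SE 0.23), both at a limma adjusted p of 0.604. With 103 in place of the 20 the change of Cd99 was -0.42, and with quantile normalization -0.37. That of Cd84 was 0.38 without Wild type sham replicate 2. Unadjusted p was under 0.05 for these and Cd74, 3 genes (12%) against 6.97% of tested genes. For Cd84, Wild type sham replicate 3 (379) lay among the 6 Adrb3-/- libraries (327 to 587), while the other 4 Wild type libraries lay between 194 and 282. For ICH against sham averaged over genotypes, none passed (0% of tested genes), with Cd86 at -0.50 (SE 0.16, adjusted p = 0.876) and Cd83 at -0.61 (SE 0.25, adjusted p = 0.894), or -0.33 and -0.90 without Wild type sham replicates 3 and 2. These 2 were the genes with an unadjusted p under 0.05 (8%, against 4.6% of tested genes).

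Whether ICH acted differently in the 2 genotypes was tested as an interaction, and no gene passed (0% of tested genes). Cd40lg had the smallest p, at -1.37 (SE 0.58, adjusted p = 0.888), followed by Cd38 at -0.73 (SE 0.36, adjusted p = 0.888). With 103 in place of the 20, Cd40lg was at -0.60. It was -0.89 without Wild type sham replicate 3. Unadjusted p was under 0.05 for 1 of the 25 (4%), against 4.3% of tested genes. In Cd38 the mean went from 237 ± 65.2 in Adrb3-/- sham to 155 ± 23.2 in Adrb3-/- ICH libraries, and from 168 ± 1.54 (SD, n = 2) to 185 ± 14.5 in Wild type libraries (n = 3 for the others).

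The genes not yet described overlapped between groups in most comparisons. Cd180 ran from 228 to 528, with all 3 Adrb3-/- ICH libraries spread over that whole range (528, 274 and 228). Cd151, a tetraspanin of adhesion complexes, lay between 105 and 183 and was above background in all 11 libraries, as were Cd180, Cd40 (84.3 to 179) and Cd244 (89.1 to 230.2). Cd247, the zeta chain of the T cell receptor complex, ran from 80.6 to 191, with its highest value in Adrb3-/- ICH replicate 2. Cd276, which encodes the B7 family member B7-H3, ran from 46.1 to 133. Its lowest value was in Adrb3-/- ICH replicate 1, as was that of Cd28 (67.2 to 189), and neither was above background there. Cd209e lay between 68.0 and 127 in the 9 libraries other than Adrb3-/- ICH replicates 1 (40.3) and 2 (under 20 counts).

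**Figure D3:**
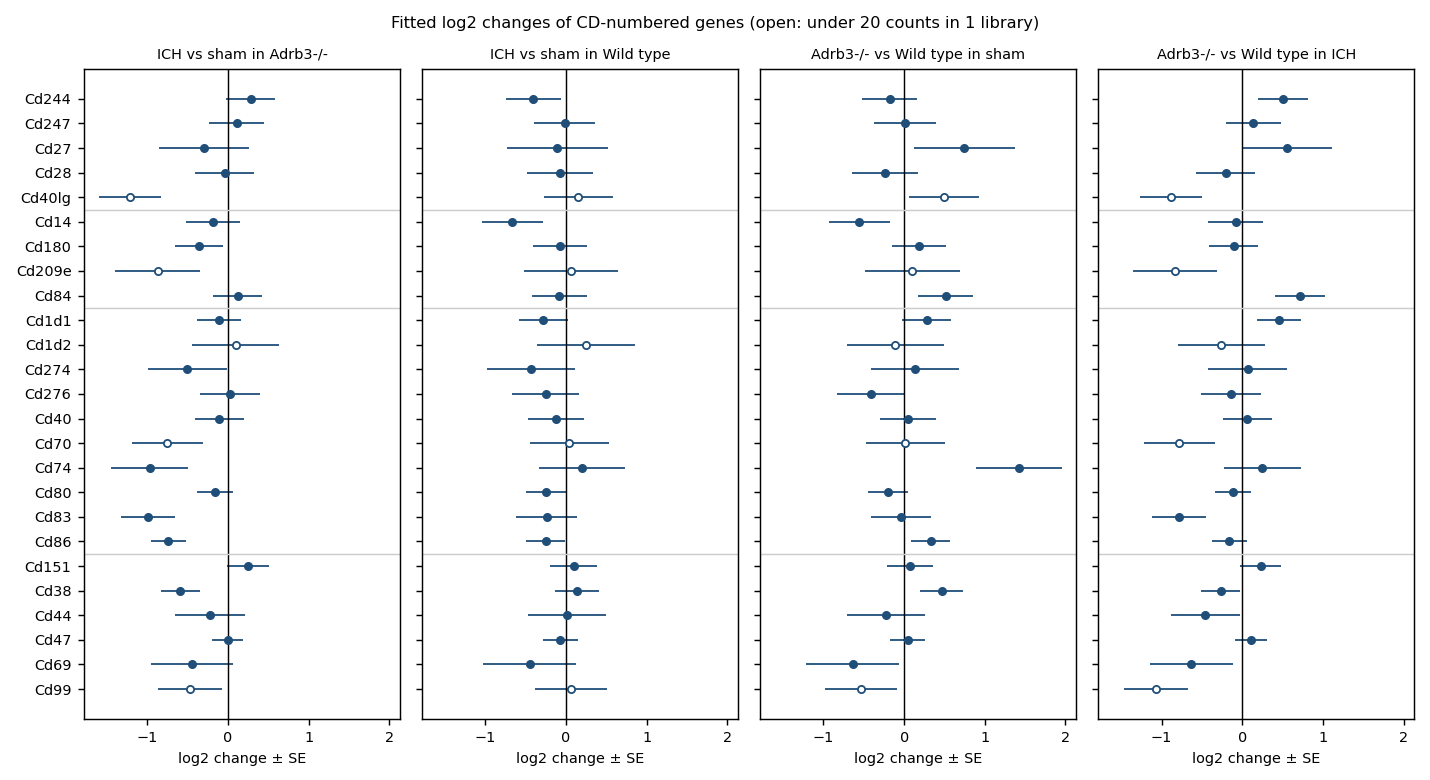
Fitted log2 changes of the 25 genes in the 4 comparisons of 2 groups, with bars of 1 standard error; open points are genes with 1 library under 20 counts, and grey lines divide the classes from T and NK cell genes at the top through myeloid and antigen presentation genes to broadly expressed genes. None of these changes passed over all tested genes, and the largest positive one is Cd74 at 1.42 in sham mice.

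The ligand and receptor pairs among the genes can be set side by side. For Cd27 and its ligand Cd70, the log2 changes for ICH in Adrb3-/- mice were -0.30 (SE 0.56) and -0.75 (SE 0.44). Cd40 stood at -0.11 (SE 0.31) beside its ligand Cd40lg at -1.22. Cd28, the costimulatory receptor of T cells, stood at -0.04 (SE 0.37), beside Cd80 at -0.17 (SE 0.22) and Cd86 at -0.74. None of these passed. Cd47, the steadiest gene, had log2 changes between -0.07 and 0.11 in the 4 comparisons of 2 groups, with standard errors of at most 0.22.

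Within groups, libraries differed in the content of progenitor transcripts, and some CD-numbered genes varied with it. The level of each of the 25 genes was set against the summed values of markers of 3 cell types over the 11 libraries, on a log2 scale, which gave 75 relations. Of these, 4 passed by both Pearson's r and Spearman's rho (permutation tests with 100000 resamples, two-sided, Benjamini-Hochberg over 75). The share of all tested genes that would pass in this way was not computed. The permutations exchanged libraries across the 4 groups, so differences between groups enter these p-values. Cd27 followed the 4 stem and progenitor markers measured (Kit, Flt3, Gata2 and Cd34) most closely. Its r was 0.99 (p = 1e-05, the smallest these permutations can give, adjusted p = 0.00075) and its rho was 1 (p = 1e-05, adjusted p = 0.00075), so that both put the 11 libraries in 1 order. The order ran from Adrb3-/- ICH replicate 1, with Cd27 at 82.5 (43 counts, below the background of that library) and the marker sum at 553, to Adrb3-/- ICH replicate 3, with 383 and 3403.

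The relation of Cd27 was about as close without the extreme libraries and within groups. Leaving out the 2 libraries farthest from the median sum gave an r of 0.986, and deviations from the group means gave 0.989. With single markers r was 0.978 for Cd34, 0.969 for Gata2, 0.955 for Flt3 and 0.905 for Kit, which was at 20 in 1 library. None of the 669 other tested genes had a higher r with the marker sum, and the next was Angpt1 at 0.977. Cd274 (r = 0.85, adjusted p = 0.00525, rho = 0.882, adjusted p = 0.0262) and Cd1d1, which presents lipid antigens to NKT cells (r = 0.882, adjusted p = 0.0131, rho = 0.864, adjusted p = 0.0262), followed the same sum. Without the 2 farthest libraries their r was 0.837 and 0.937, and within groups 0.941 and 0.871. Of the 669 other genes, 23 had a higher r with this sum than Cd274 and 14 a higher one than Cd1d1. An r over 0.8 was seen for 4.48% of the 669.

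Cd38 followed the summed macrophage markers (r = 0.875, p = 0.00054, adjusted p = 0.0131, rho = 0.836, p = 0.00248, adjusted p = 0.0465). Of the 663 other genes compared with this sum, 5 had a higher r, and 1.06% had an r over 0.8. Without the 2 farthest libraries, Adrb3-/- sham replicate 3 and Adrb3-/- ICH replicate 3, the r of Cd38 was 0.619, and within groups it was 0.679. Cd86, Cd83 and Cd74 did not pass the permutation test against these markers. Their r was 0.732 (adjusted p = 0.15), 0.499 (adjusted p = 0.655) and 0.455 (adjusted p = 0.683) in turn. Within groups the r of Cd86 was 0.0227, that of Cd83 was -0.14 and that of Cd74 was -0.0386. No gene of the 25 passed against the 8 neutrophil markers measured. All values of a library share its scaling factor, and the points of a gene and a marker sum therefore share it too.

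**Figure D4:**
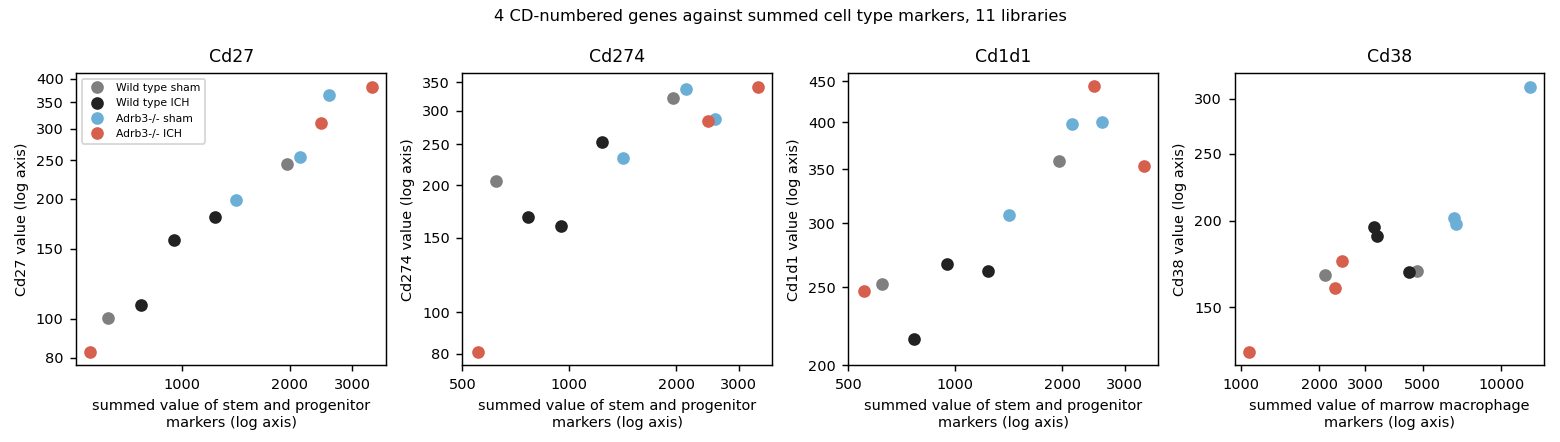
Values of Cd27, Cd274 and Cd1d1 against the summed values of the 4 stem and progenitor markers, and of Cd38 against the summed 10 macrophage markers, with log axes; each point is 1 of the 11 libraries, coloured by group. Cd27 rises from 82.5 to 383 in the same order of libraries as the marker sum, with all 4 groups along 1 line.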

How the data were processed

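The authors deposited 1 table of signal values, 754 genes and 14 control probes by 12 samples, while instrument, panel and scaling are not named in the sources used here. From the values, each deposited gene signal is a whole count multiplied by 1 factor per library, and genes under 20 counts carry an unscaled 20. Control probes are unscaled counts. Because these held values have lost their counts, no test on counts was run. Counts per gene and the spread between mice limit the precision.

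Genes were tested when their mean over 11 libraries exceeded 52.2, the background: the negative controls' mean plus 2 SD, scaled and averaged. This kept 674 genes, with all 25 examined here. On log2(value + 1), limma 3.58.1 (lmFit, eBayes; R 4.3.3) estimated the 4 group means, with 7 residual degrees of freedom per gene, 7 two-sided contrasts and Benjamini-Hochberg adjustment over the 674 at a threshold of 0.05. The added 1 slightly understates changes of low genes. The fit was checked on simulated data. Alternatives were 12 libraries, other pseudocounts, filters and scalings, the worth of 20 counts in place of the 20, array weights, a replicate block, each library left out, and, chosen after the data were seen, subtraction of the negative controls and leaving out 2 libraries together. Genes described in full were the 4 with the smallest p in each comparison of 2 groups and the 2 in each other contrast, with those at 20 and those of ligand pairs or wide range. The last 2 kinds were picked once values were known. The gene set, classes and marker lists were chosen with earlier results of these data known. All 25 symbols were matched, 1 of them as an older name, to the RefSeq gene table of GRCm38.p6 for names only.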

Additional observations from a re-analysis of the deposited data

Results flagged for a closer look

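Wild type sham replicate 1, which the main comparisons leave out, still held counts above its negative controls. In that library 6 of the 25 CD-numbered genes exceeded its background of 44.6 counts (negative controls, mean plus 2 SD). They were Cd28 (90 counts), Cd74 (63), Cd99 (50), Cd38 (48), Cd1d2 (47) and Cd86 (46), while the highest negative control was at 42. The share of all genes above this background was not computed, and whether these counts are signal was not tested. Cd47, at 644 counts or more in 10 of the other 11 libraries and 271 in Adrb3-/- ICH replicate 2, gave 37 counts there. No CD-numbered gene passed in the interaction of genotype and ICH.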

How the results depend on the processing

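No CD-numbered gene passed in any of the 7 comparisons with 11 libraries, and the same count of 0 came from 156 of 158 fits of a comparison under an alternative. The 2 exceptions left out Adrb3-/- ICH replicate 3: the count was then 1 for ICH against sham in Adrb3-/- mice and 1 for Adrb3-/- against Wild type mice after ICH, so over single libraries left out it ranged from 0 to 1 in both, and was 0 in the other 5 comparisons. The gene was Cd209e in both, among 50 and 49 of 674 genes that passed there, and its 2 remaining ICH libraries were at 40.3 and under 20 counts. The 22 named changes kept their sign in 489 of 492 values under alternatives. With Wild type sham replicate 1 included, Cd80 for ICH in Wild type mice turned to 0.64 and Cd38 for genotype after sham to -0.25. With quantile normalization Cd40lg for genotype after ICH turned to 0.16. The replicate block gave 0 CD-numbered genes in all 7 comparisons, and 0 of 674 genes for ICH in Adrb3-/- mice, where 7 had passed. Libraries with the same replicate number had deviations from their group means that correlated between -0.42 and 0.15. For libraries with different numbers the range was -0.31 to 0.45. The deviations of a group cancel out, which ties these correlations to each other. They therefore cannot settle whether the numbers mark a pairing. Median centring moved all changes for ICH against sham by 0.12 in both genotypes, and quantile normalization put the median change of all genes for ICH in Adrb3-/- mice at 0.04, from -0.16. Of all genes, 7 passed for ICH in Adrb3-/- mice, against 5 with the worth of 20 counts in place of the 20, 6 with negative controls subtracted, 8 with quantile normalization, 9 with at least 20 counts in every library, 0 with 12 libraries, 13 with a pseudocount of 20, 1 with median centring, 2 without a filter, 0 with only the groups compared, 0 with array weights, 0 to 50 with 1 library left out and 0 without the 2 libraries Adrb3-/- sham replicate 3 and Adrb3-/- ICH replicate 1, which, like the subtraction, was chosen after seeing the data. Cd40lg, Cd99 or other genes at 20 could not be fitted where at least 20 counts were asked in every library.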

Other observations

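Cd44, the hyaluronan receptor and a known abundant surface antigen of marrow leukocytes, had values from 40.3 to 152 and a median count 1.87 times the background. It was above background in 10 of 11 libraries.

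Cd1d1 and Cd1d2 are close copies of each other, and how far the probes tell them apart is not given in the sources used here. Cd1d1 ran from 216 to 444 and was above background in all 11 libraries. Cd1d2 had a highest value of 113, in Adrb3-/- ICH replicate 1, and was above background in 8.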
